A study of Homo sapiens with 15 samples.

Results

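Lysine residues of histone tails carry methyl groups that mark active and silent chromatin. SET-domain methyltransferases write these groups with S-adenosylmethionine as donor. KDM1-type demethylases remove them by an FAD-dependent oxidation, and JmjC-type demethylases by a reaction that needs iron and 2-oxoglutarate. Methylation of H3K4 is found at active promoters and enhancers and that of H3K36 along transcribed genes, whereas H3K9 and H3K27 methylation are linked to silencing and H4K20 methylation to chromosome compaction and the cell cycle. Several of these enzymes, among them KDM1A, KDM3A, KDM4B and KDM4C, are known as coregulators of androgen-dependent transcription.

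The enzymes described here are the 32 genes, of 17272 in the LNCaP expression table, whose symbol follows the KDM, KMT2, KMT5, SETD or SETDB naming pattern, with the Y-linked KDM5D left out. They comprise 17 demethylases and 15 genes with a SET domain. The naming rule uses no measured value, although it was set with earlier results of these data known. All 32 passed the filter on low values, a mean of at least 0.5 CPM over all libraries. CPM stands here for the deposited signal, the reads of a gene scaled by a factor for each library. The table uses older symbols in part. SETD8 is the listed symbol of KMT5A, and KMT5B and KMT5C are listed under other symbols that the pattern does not match.

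LNCaP is an established line of androgen-sensitive human prostate cancer cells. All cells were starved in charcoal-stripped serum for 2 days and then given the synthetic androgen R1881 at 1 nM. The R1881 group (10 libraries) received DMSO beside R1881, and the R1881 + enzalutamide group (5 libraries) received the antiandrogen enzalutamide at 2 µM. Cells were harvested after 22 h and polyadenylated RNA was sequenced. No library without R1881 was compared, so every difference is between androgen with and without the antiandrogen.

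Depth ran from 15830745 to 25416052 reads on genes in a library. The treatment was checked on the androgen-induced genes KLK2, FKBP5 and TMPRSS2, and all 3 fell, with log2 fold changes of -4.87, -4.99 and -3.56. The epithelial genes KRT8 and KRT18 were present in both groups and fell, from 1581 ± 192 to 349 ± 32.8 CPM and from 925 ± 53.0 to 223 ± 11.6 CPM. The prostate genes FOLH1 and HOXB13 rose, from 740 ± 37.1 to 1526 ± 69.7 CPM and from 283 ± 27.1 to 316 ± 22.9 CPM, and EPCAM rose from 81.7 ± 3.97 to 89.6 ± 5.57 CPM. Of 10 markers of other cells, VIM, COL1A1 and KRT14 had values, with a summed level of 26.8 to 33.0 CPM and 41.7 to 47.5 CPM, and the other 7 were not analysed here. VIM and COL1A1 rose, with log2 fold changes of 0.59 and 0.69, and KRT14 fell, at -1.35, from a mean level of 1.02 CPM. The part of these marker changes in the results below was not tested. In the labels the libraries carry the numbers 51 to 55 or 71 to 75 with R1881 and 81 to 85 with enzalutamide. Both treatments never occur in 1 series of numbers, so that series and treatment cannot be told apart.

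Of the 32 enzymes, 20 differed between the treatments at an adjusted p under 0.05 (limma on log2(CPM + 0.5) over 17046 genes, Benjamini-Hochberg adjustment), 8 lower and 12 higher with enzalutamide. That is 62.5% of them, beside 62.5% of all genes tested. Lower calls made up 25% of the enzymes and 32.7% of all genes, and higher calls 37.5% and 29.8%. A change of at least 1.5-fold that passed the test was found for 5 enzymes (15.6%, against 18.6% of all genes), and no enzyme changed 2-fold. The median log2 fold change was -0.02 over the enzymes and -0.01 over all genes, and the median size of the change regardless of sign was 0.16 and 0.24. As a class the enzymes therefore were called as often as genes in general, and the results are those of single enzymes. Library sums of the deposited values were higher in every R1881 library (1053406 to 1078567) than in any enzalutamide library (985580 to 1008992). With all library totals made equal, the median of all genes moved up by 0.08 on the log2 scale. The calls over all genes went from 5577 lower and 5083 higher to 4288 lower and 6629 higher. The enzyme counts became 5 lower and 15 higher. edgeR on the recovered reads called 22 enzymes (63% of all genes) and DESeq2 21 (61.9% of all genes). Against the R1881 series 51 to 55 or 71 to 75 alone, limma called 21 enzymes each time (61.4% and 58.7% of all genes).

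**Figure D1:**
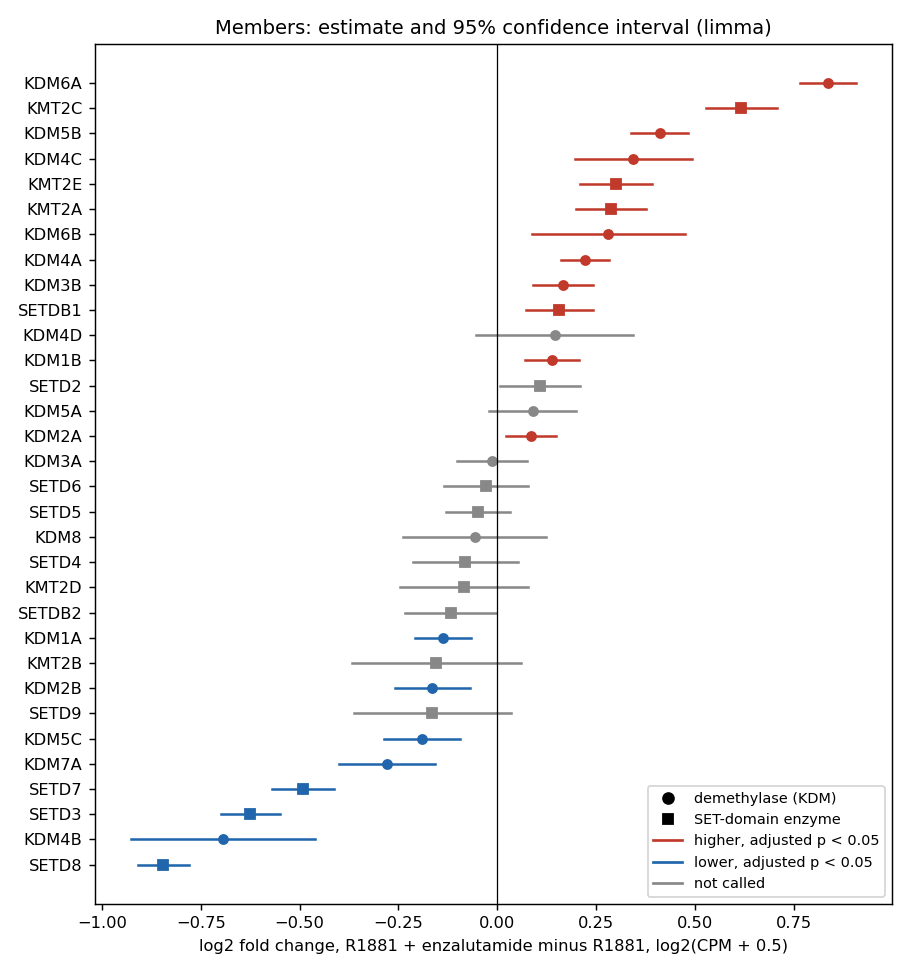
Log2 fold change of each of the 32 enzymes (x axis, R1881 + enzalutamide minus R1881 on the log2(CPM + 0.5) scale) with its 95% confidence interval from limma, circles for demethylases and squares for SET-domain genes. KDM6A at 0.84 and SETD8 at -0.84 are the ends of the list, 12 enzymes in red were called higher, 8 in blue lower and 12 in grey were not called.

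The largest changes were those of KDM6A and KMT2C upward and of SETD8, KDM4B and SETD3 downward. For 4 of these 5, the 250 bases before the first transcription start that RefSeq lists are shown, since they illustrate a feature that the selection did not use, the density of CG dinucleotides. The bases run from 5′ to 3′ on the strand of the gene (RefSeq, GRCh38.p14), with every CG in capitals. The stretch of KMT2C precedes the RefSeq start but lies inside the gene as GENCODE v44 bounds it, since those bounds reach 152436644.
KDM6A, chrX:44872938-44873187, plus strand: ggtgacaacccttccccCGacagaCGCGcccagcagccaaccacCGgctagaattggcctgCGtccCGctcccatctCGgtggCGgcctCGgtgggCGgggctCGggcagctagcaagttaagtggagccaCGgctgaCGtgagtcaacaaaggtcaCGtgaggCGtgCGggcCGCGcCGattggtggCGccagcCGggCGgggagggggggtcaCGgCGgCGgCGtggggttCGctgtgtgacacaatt
KMT2C, chr7:152436004-152436253, minus strand: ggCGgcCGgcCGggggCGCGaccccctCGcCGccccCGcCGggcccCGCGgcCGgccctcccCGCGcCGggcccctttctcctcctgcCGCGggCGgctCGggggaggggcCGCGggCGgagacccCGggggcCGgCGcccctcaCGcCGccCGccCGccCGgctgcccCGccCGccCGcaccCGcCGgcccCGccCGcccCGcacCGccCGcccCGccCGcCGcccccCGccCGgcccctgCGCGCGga
SETD8 (KMT5A), chr12:123383882-123384131, plus strand: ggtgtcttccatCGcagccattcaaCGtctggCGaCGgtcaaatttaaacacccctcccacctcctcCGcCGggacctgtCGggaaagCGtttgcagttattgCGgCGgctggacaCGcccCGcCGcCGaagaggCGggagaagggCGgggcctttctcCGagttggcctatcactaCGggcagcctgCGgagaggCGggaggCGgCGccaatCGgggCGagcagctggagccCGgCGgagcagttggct
KDM4B, chr19:4968863-4969112, plus strand: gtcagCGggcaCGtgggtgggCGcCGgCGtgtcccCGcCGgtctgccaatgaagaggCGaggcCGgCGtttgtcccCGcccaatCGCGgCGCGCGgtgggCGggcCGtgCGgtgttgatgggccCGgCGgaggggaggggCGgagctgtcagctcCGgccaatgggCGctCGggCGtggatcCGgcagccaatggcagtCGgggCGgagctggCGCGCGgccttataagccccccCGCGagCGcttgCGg
These stretches held 27, 48, 26 and 36 CG dinucleotides, respectively, so both the genes that rose and those that fell start in CG-rich sequence. Over the full windows of 300 bases around the start (250 before and 50 after), the 43 windows listed for the 32 genes had a median of 29 CG dinucleotides, beside a median of 14 in all 35116 windows of the table. Some of the 43 windows overlap each other. The androgen response hexamer TGTTCT occurred in 2 of the 43 windows, or 4.65%, and in 14.8% of all windows. Both are overlapping windows of SETD9 that hold the same single site. An E2F-type heptamer, TTCCCGC, was found in 1 of 43 windows, that of KDM1B, which holds it 3 times, and in 6.55% of all windows. The CHR hexamer TTTGAA was found in 4.65% of the enzyme windows (KDM2A and KDM4D) and in 15.2% of all. Both strands were searched, and none of the 3 motifs contains another. The windows were not matched for base composition, which differs between the enzymes and all genes, so the shares do not show a lack of sites. A match of letters does not show binding, and its absence from a window says nothing about a factor acting elsewhere.

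Among the H3K27 demethylases, KDM6A showed the largest rise of all 32 enzymes. KDM6A removes methyl groups from H3K27 and is a subunit of the KMT2C and KMT2D complexes at enhancers. With R1881 its level was 253 CPM in the lowest library, 275 CPM in the median and 294 CPM in the highest, and with R1881 + enzalutamide the 5 libraries held 507, 465, 484, 505 and 486 CPM. The groups were far apart, and the lowest enzalutamide library stood well above the highest R1881 library. Its log2 fold change was 0.84 (standard error, SE, 0.034; adjusted p = 7.84e-15 from limma), a 1.79-fold rise (exact permutation p = 0.000333, two-sided over all 3003 regroupings of the libraries, the smallest this design allows). Over all genes, a rise of at least 1.5-fold that passed the test was seen for 9.06%. KDM6A lies on chromosome X, from 44873188 to 45112779 of GRCh38 (plus strand, 30 exons in the canonical transcript of GENCODE v44).

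KDM6B, the inducible H3K27 demethylase, changed less and less evenly. Its R1881 libraries ranged from 34.3 to 60.5 CPM with a median of 44.4, and the R1881 + enzalutamide libraries held 48.5, 64.1, 54.2, 52.6 and 55.2 CPM. The groups overlapped over a wide range. The log2 fold change was 0.28 (SE 0.093, adjusted p = 0.0125 from limma), and it did not pass against the R1881 libraries 71 to 75 alone, at 0.17 (adjusted p = 0.120 from limma). With the trend on GC content removed in each library, the groups no longer overlapped and the log2 fold change was 0.36 (adjusted p = 9.10e-10 from limma). Within a library, the log2 ratio of KDM6A to KDM6B (each as CPM + 0.5) went from 2.59 ± 0.272 (SD, n = 10) to 3.15 ± 0.194 (SD, n = 5), a difference of 0.56 (two-sided exact permutation p = 0.00167, 0.00250 after adjustment over 12 pairs).

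The H3K4 methyltransferases of the KMT2 family parted. KMT2C, which places monomethyl marks at enhancers, was measured at 151 to 179 CPM with R1881 (median 170) and at 263, 247, 237, 268 and 267 CPM with R1881 + enzalutamide. Every enzalutamide library was above every R1881 library. This was a 1.53-fold rise (log2 fold change 0.62, SE 0.043, adjusted p = 7.31e-11 from limma). The gene spans 152134922 to 152436644 of chromosome 7 (minus strand, 59 exons). The annotation holds 4 pseudogenes of it, KMT2CP2 to KMT2CP5, with which short reads can be shared, so that its level is uncertain.

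KMT2D, the paralogue of KMT2C with the same function, had 61.9 to 92.1 CPM with R1881 and 63.8 to 82.2 CPM with R1881 + enzalutamide, and the groups overlapped almost fully. Its log2 fold change of -0.08 (95% confidence interval -0.25 to 0.08) did not pass. Against the R1881 libraries 71 to 75 alone, KMT2D was called lower, at -0.19 (adjusted p = 0.0315 from limma). The KMT2C to KMT2D log2 ratio, however, shifted from 1.14 ± 0.228 (SD, n = 10) to 1.84 ± 0.165 (SD, n = 5) without overlap, a difference of 0.70 (two-sided exact permutation p = 0.000333, adjusted over 12 pairs 0.000666).

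KMT2A and KMT2B also form a pair, best known for trimethylating H3K4 at promoters. KMT2A rose from 82.8 ± 3.83 to 101 ± 6.76 CPM (mean ± SD of 10 and 5 libraries) without overlap, a log2 fold change of 0.29 (adjusted p = 6.36e-06 from limma). KMT2B had 23.2 ± 4.03 CPM and 20.7 ± 2.54 CPM, and its log2 fold change of -0.15 (95% confidence interval -0.37 to 0.06) did not pass. Against the R1881 libraries 71 to 75 alone, KMT2B was called lower, at -0.29 (adjusted p = 0.0245 from limma). The log2 ratio of KMT2A to KMT2B increased by 0.44 (two-sided exact permutation p = 0.00633, adjusted 0.00759), with overlapping groups. KMT2E, a relative that reads H3K4 methylation and has no established methyltransferase activity of its own, rose from 101 ± 5.56 to 124 ± 6.56 CPM, a log2 fold change of 0.30 (adjusted p = 4.00e-06 from limma), again without overlap.

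SETD7 writes monomethyl H3K4 and also methylates many proteins other than histones. It was the most abundant of the enzymes with R1881, at 423 to 491 CPM (median 478), and fell to 348, 323, 314, 350 and 340 CPM with R1881 + enzalutamide. The highest enzalutamide library stayed below the lowest R1881 library. The log2 fold change was -0.49 (SE 0.038, adjusted p = 3.70e-10 from limma), and the mean fell by 28.9%.

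**Figure D2:**
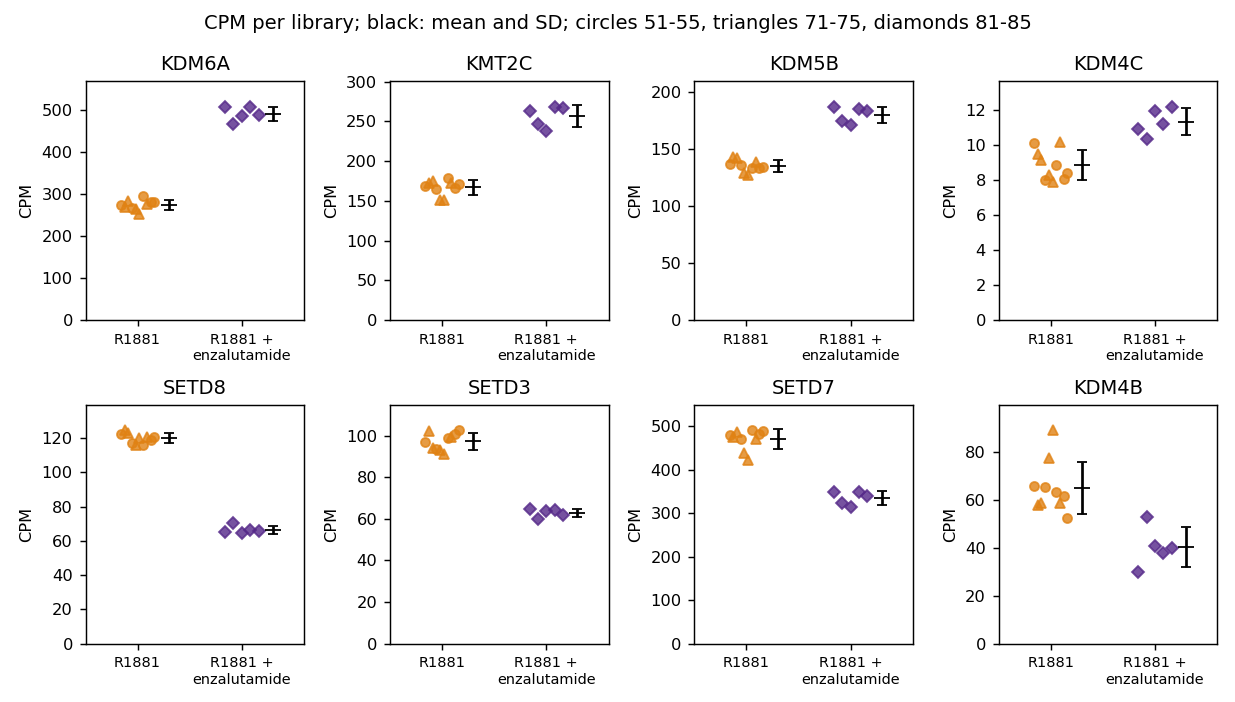
CPM in each library for 8 enzymes (y axes in CPM from 0), R1881 in orange and R1881 + enzalutamide in purple, with circles, triangles and diamonds for the label series 51 to 55, 71 to 75 and 81 to 85 and black marks for mean and SD. For 7 of the 8 the treatments do not overlap, and for KDM4B the lowest R1881 library at 52.4 CPM meets the highest enzalutamide library at 52.7 CPM.

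SETD8 showed the largest decrease. SETD8 (KMT5A) is the monomethyltransferase of H4K20, and its protein rises and is degraded with the cell cycle through the CRL4 ubiquitin ligase with the adaptor DTL. The R1881 libraries lay between 116 and 124 CPM (median 120), and the R1881 + enzalutamide libraries held 65.4, 70.3, 64.4, 66.4 and 66.0 CPM. Both groups were narrow and far apart. The log2 fold change was -0.84 (SE 0.031, adjusted p = 1.17e-15 from limma), or 1.80-fold (two-sided exact permutation p = 0.000333), where 9.55% of all genes were called at least 1.5-fold lower. The gene spans 123384132 to 123409353 of chromosome 12 (plus strand, 8 exons), with processed pseudogenes KMT5AP1, KMT5AP2 and KMT5AP3 elsewhere that can share reads.

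Of 16 cell cycle genes, among them MKI67, CDC6 and DTL, all 16 were lower with enzalutamide, where 32.7% of all genes were called lower. Their median log2 fold change was -0.93. Summed over the list, R1881 libraries held 1261 to 1574 CPM and enzalutamide libraries 652 to 757 CPM, and the part of this change in the decrease of SETD8 was not tested. In bulk RNA, fewer cells of a kind and less RNA per cell cannot be told apart. The enzymes that extend H4K20 monomethylation to higher states, listed as SUV420H1 (KMT5B) and SUV420H2 (KMT5C), behaved otherwise. KMT5B had 74.1 ± 4.26 and 71.0 ± 5.16 CPM and was not called (adjusted p = 0.267 from limma), whereas KMT5C rose from 4.57 ± 1.09 to 6.35 ± 1.02 CPM (log2 fold change 0.45, adjusted p = 0.00474 from limma).

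SETD3 fell alongside SETD8, although its known substrate is a histidine of actin and not a histone. Its R1881 libraries spanned 91.1 to 103 CPM (median 97.8), and with R1881 + enzalutamide it was at 64.6, 59.8, 63.9, 64.1 and 61.9 CPM. No library of either group came near the other. This gave a log2 fold change of -0.62 (SE 0.036, adjusted p = 2.83e-12 from limma). The other SETD genes of less defined histone activity were not called. SETD4, SETD5, SETD6 and SETD9 had log2 fold changes of -0.08, -0.05, -0.03 and -0.16, with adjusted p-values between 0.139 and 0.644 from limma.

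SETD2, the enzyme that trimethylates H3K36 behind elongating RNA polymerase, had 80.4 ± 5.04 CPM (SD, n = 10) and 86.7 ± 5.41 CPM (SD, n = 5). Its log2 fold change of 0.11 just missed the threshold (adjusted p = 0.0595 from limma). SETD2 passed in 10 of the alternative settings, among them TMM scaling (0.12, adjusted p = 0.0241 from limma), and in none of the others. Its log2 fold change was 0.05, and not called, against the R1881 libraries 51 to 55 alone. The same held with the trend on transcript length removed (0.05). The H3K9 methyltransferase SETDB1, which silences retroelements with TRIM28 and ATF7IP, rose from 67.2 ± 3.49 to 75.0 ± 2.62 CPM (log2 fold change 0.16, adjusted p = 0.00192 from limma), with overlapping groups. Its paralogue SETDB2 had 38.4 ± 2.98 and 35.3 ± 2.01 CPM and was not called (log2 fold change -0.12, adjusted p = 0.0717 from limma). Their log2 ratio rose by 0.28 without overlap (two-sided exact permutation p = 0.000333, adjusted over 12 pairs 0.000666).

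The demethylases of H3K9 and H3K36 in the KDM4 family moved in opposite directions. KDM4B, a JmjC enzyme known as a coregulator of androgen-dependent transcription, fell from a range of 52.4 to 88.8 CPM with R1881 (median 62.4) to 29.8, 52.7, 40.7, 37.6 and 40.0 CPM with R1881 + enzalutamide. Only R1881 replicate 10 and R1881 + enzalutamide replicate 2 made the groups touch. Its log2 fold change was -0.69 (SE 0.112, adjusted p = 1.64e-05 from limma, two-sided exact permutation p = 0.000666). The SE was over 3 times that of KDM6A, and without R1881 + enzalutamide replicate 2 the log2 fold change was -0.80.

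KDM4A, of the same family and substrates, rose from a mean of 110 CPM (range 106 to 114, n = 10) to 129 ± 3.94 CPM (SD, n = 5) without overlap, a log2 fold change of 0.22 (adjusted p = 1.29e-06 from limma). KDM4C, a further coregulator of this kind, was present at a low level and rose from 8.84 ± 0.858 to 11.3 ± 0.761 CPM, a log2 fold change of 0.34 (adjusted p = 2.53e-04 from limma), also without overlap. KDM4D had the lowest level of the 32 enzymes, 2.04 ± 0.209 and 2.33 ± 0.437 CPM, and was not called (adjusted p = 0.192 from limma). Within libraries, the log2 ratio of KDM4A to KDM4B went from 0.78 ± 0.231 to 1.69 ± 0.290, the largest shift of the 12 pairs at 0.91 (two-sided exact permutation p = 0.000333, adjusted 0.000666). The ratio of KDM4A to KDM4C was the single pair that did not pass, with a difference of -0.12 (SE 0.073, two-sided exact permutation p = 0.116).

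KDM3A and KDM3B demethylate mono- and dimethyl H3K9. KDM3A had 52.9 ± 2.92 and 52.4 ± 1.91 CPM without and with enzalutamide, a log2 fold change of -0.01 (95% confidence interval -0.10 to 0.08). KDM3B rose from 127 ± 5.19 to 143 ± 6.79 CPM without overlap (log2 fold change 0.17, adjusted p = 5.31e-04 from limma). KDM7A, which acts on H3K9 and H3K27, fell from a range of 25.9 to 31.8 CPM to 25.3, 21.7, 22.4, 25.6 and 24.9 CPM, so that the groups were separated by a narrow gap (log2 fold change -0.28, SE 0.058, adjusted p = 3.08e-04 from limma).

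The H3K4 demethylases were divided as well. KDM5B, a JmjC enzyme that removes di- and trimethyl marks and is abundant in luminal tumours, was at 127 to 143 CPM with R1881 (median 135) and at 187, 174, 171, 185 and 183 CPM with R1881 + enzalutamide. The treatments stood apart in every library. This gave a log2 fold change of 0.41 (SE 0.034, adjusted p = 1.32e-09 from limma). Its relative KDM5A, which binds the retinoblastoma protein, had 50.4 ± 3.46 and 53.6 ± 3.62 CPM and was not called (adjusted p = 0.145 from limma), and the X-linked KDM5C fell from 108 ± 6.83 to 94.2 ± 5.77 CPM (log2 fold change -0.19, adjusted p = 0.00129 from limma). The KDM5A to KDM5B log2 ratio decreased by 0.32 without overlap (two-sided exact permutation p = 0.000333), and that of KDM5A to KDM5C increased by 0.28 with overlap (two-sided exact permutation p = 0.00533).

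KDM1A, the FAD-dependent demethylase of mono- and dimethyl H3K4 that works in the CoREST complex, fell from 123 ± 4.53 to 112 ± 4.15 CPM (log2 fold change -0.14, adjusted p = 0.00153 from limma). Its paralogue KDM1B rose from 56.5 ± 1.36 to 62.3 ± 2.08 CPM (log2 fold change 0.14, adjusted p = 0.00106 from limma). Library scaling cancels in the ratio of the pair apart from the pseudocount, and its log2 value fell from 1.11 ± 0.056 (SD, n = 10) to 0.84 ± 0.052 (SD, n = 5) with no overlap (two-sided exact permutation p = 0.000333, adjusted over 12 pairs 0.000666). The H3K36 demethylases KDM2A and KDM2B, which bind CG-rich promoters through a CXXC zinc finger, parted in the same manner. KDM2A rose slightly, from 150 ± 4.45 to 160 ± 4.71 CPM (log2 fold change 0.09, adjusted p = 0.0187 from limma), and KDM2B fell from 30.5 ± 1.62 to 27.1 ± 1.00 CPM (log2 fold change -0.16, adjusted p = 0.00357 from limma). Their log2 ratio increased by 0.25 without overlap (two-sided exact permutation p = 0.000333). KDM8 had 3.21 ± 0.353 and 3.07 ± 0.372 CPM and was not called (adjusted p = 0.587 from limma). With all library totals made equal, KDM1A, KDM2B and KDM5C no longer passed, at log2 fold changes of -0.04, -0.07 and -0.10, and KDM2A did not pass with the trend on transcript length removed (0.04, adjusted p = 0.370 from limma), without R1881 + enzalutamide replicate 1 (0.07, adjusted p = 0.0611 from limma) or against the R1881 libraries 71 to 75 alone (0.07, adjusted p = 0.0883 from limma).

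**Figure D3:**
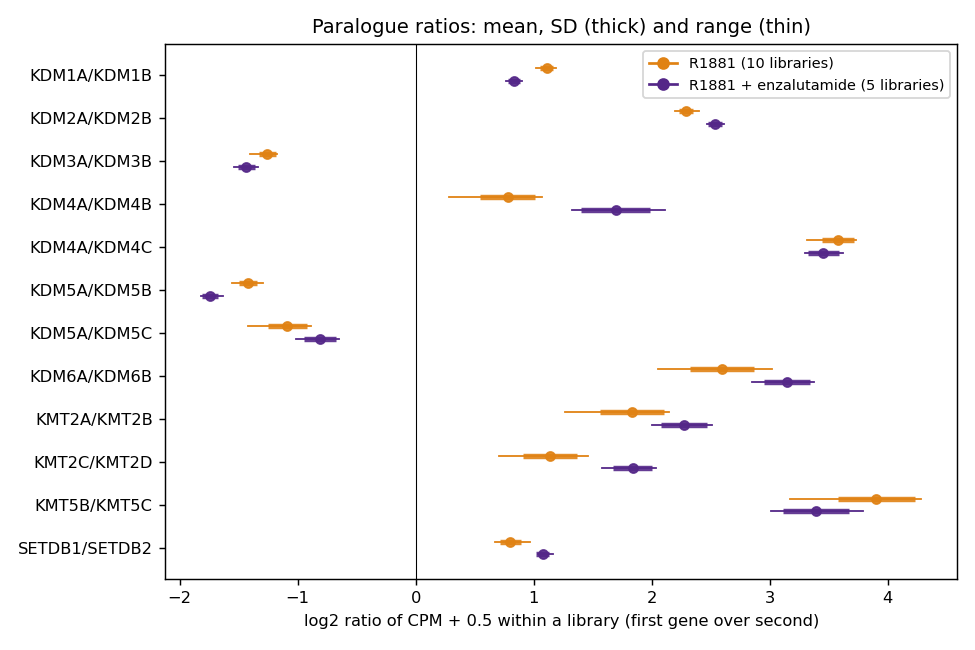
Log2 ratio of CPM + 0.5 within each library for 12 pairs of paralogues (x axis, first gene over second), with the mean, SD (thick bar) and range (thin line) of 10 R1881 libraries in orange and 5 R1881 + enzalutamide libraries in purple. The ratio KDM4A/KDM4B moves most, by 0.91, and KDM4A/KDM4C is the pair that did not pass.

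In all, 11 of the 12 pairs shifted at an adjusted p under 0.05, and 6 of them without overlap of the groups. Of single genes, 62.5% were called and 37.2% did not overlap, and no such share was computed for ratios of other gene pairs. Among single enzymes, for 4 enzymes (SETD8, SETD3, SETD7 and KDM7A) every enzalutamide library lay below every R1881 library, and for 9 (KDM6A, KMT2C, KDM5B, KDM4C, KMT2E, KMT2A, KDM4A, KDM3B and KDM1B) above. These 40.6% of the enzymes stand beside 37.2% of all genes tested, 20.1% below and 17.1% above. Between the R1881 series 71 to 75 and 51 to 55, a comparison of fewer libraries, limma called none of the 32 enzymes (3.17% of all genes). At an unadjusted p under 0.05 there were 4 enzymes, and the share of all genes at that cutoff was not computed. Those 4 were SETD2, KMT2D, KDM6B and KMT2B, none of which is among the enzymes without overlap.

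Levels can be compared between genes only per length. The length used was that of the canonical transcript, and the order below holds for that choice only. All annotated exons of KDM6A together cover 27742 bases, against 6094 in its canonical transcript. For KDM1A these lengths are 18325 and 3085, for SETD7 13909 and 6808, and for SETD8 4215 and 2776. Levels per length of all exons were not computed. On the scale of CPM per kilobase of the canonical transcript, SETD7 led with R1881 at 69.2 ± 3.28 (SD, n = 10), followed by KDM6A at 44.9 ± 1.90, SETD8 at 43.2 ± 1.06 and KDM1A at 39.8 ± 1.47. The difference between KDM6A and SETD8, measured in the same libraries, was not tested. With R1881 + enzalutamide the order at the top changed on this scale. KDM6A came first at 80.3 ± 2.85 (SD, n = 5), before SETD7 at 49.2 ± 2.31 and KDM1A at 36.2 ± 1.35, and SETD8 was at 24.0 ± 0.818. KDM4D, KDM8 and KDM4C had the lowest levels with R1881, at 0.692, 1.32 and 2.04 CPM per kilobase.

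The enzymes also differed in how much they varied between libraries of 1 treatment. The SD of log2(CPM + 0.5) over the R1881 libraries was 0.23 for KMT2B, 0.22 for KDM6B, 0.22 for KDM4B and 0.17 for KMT2D, and the median over the 32 enzymes was 0.08. These 4 have the transcripts with the highest GC content among the enzymes, between 59.8% and 63.5%. Across the 32 genes, which share the same libraries, Pearson's r between GC content and this SD was 0.54 and Spearman's rho 0.15. The libraries with the highest KDM4B in each group, R1881 replicate 6 at 88.8 CPM and R1881 + enzalutamide replicate 2 at 52.7 CPM, were also those whose deviations from the group mean followed GC content most positively across all genes (Spearman's rho 0.74 and 0.715). With a spline trend on GC content removed in each library, the SD of the 4 genes was 0.07, 0.07, 0.09 and 0.09, in the same order. The median over the 32 enzymes fell as well, to 0.05, and the part of GC content in the spread was not tested. KDM4B then no longer overlapped between the treatments and had a log2 fold change of -0.62 (SE 0.051, adjusted p = 8.72e-11 from limma), while KMT2B and KMT2D remained uncalled (adjusted p = 0.103 and 0.927 from limma). KDM1B, whose groups were apart as deposited, overlapped in this setting. The calls rose over all genes too, to 5667 lower and 6122 higher from 5577 and 5083, with 9 enzymes lower and 14 higher.

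**Figure D4:**
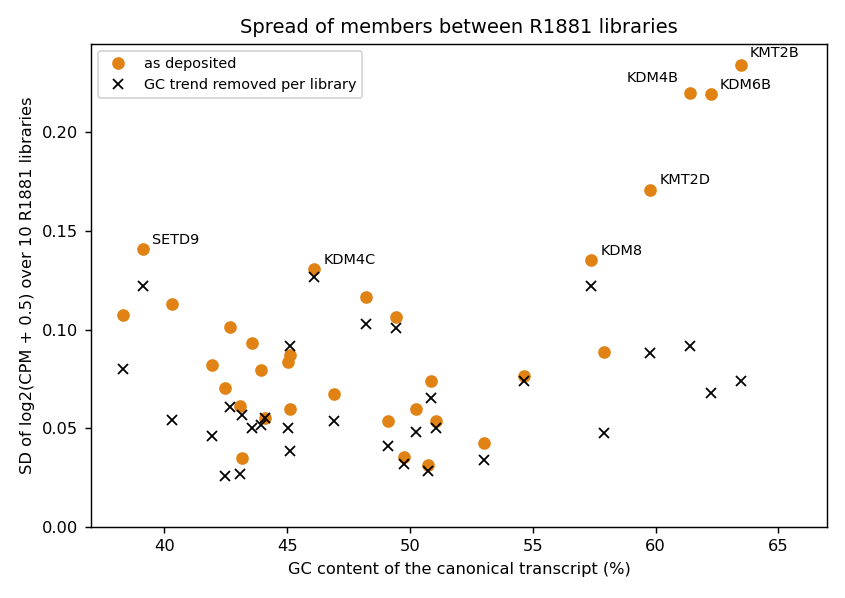
SD of log2(CPM + 0.5) over the 10 R1881 libraries (y axis) against the GC content of the canonical transcript in percent (x axis) for the 32 enzymes, as deposited (orange) and with the GC trend removed in each library (crosses). KMT2B, KDM6B, KDM4B and KMT2D stand out at 0.17 to 0.23 as deposited and are at 0.07 to 0.09 after removal.

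For 8 enzymes a protein-coding gene on the opposite strand overlaps their bounds in the annotation, as CERS2 at SETDB1, CNOT1 at SETD6 and RNF34 at KDM2B. For 4, KDM4A, KMT2A, KMT2D and KMT2E, a second protein-coding model overlaps on the same strand. The library kit keeps the strand, but no source used here states the strand setting of the counting, so reads of such partners may be included. KMT2E is in both groups, and none of the 5 enzymes with the largest changes is in either.

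COMPASS subunits are partners of KMT2-type enzymes, and not every subunit listed acts with every enzyme described here. Of 15 subunits, 8 fell, where 32.7% of all genes were called lower, and 7 were not called, 3 of these below 0. The median log2 fold change was -0.17 beside -0.01 over all genes, and the list was not tested against the enzymes. WDR5, of the core shared by all KMT2 complexes, fell from 66.2 ± 3.07 to 52.8 ± 1.80 CPM (log2 fold change -0.32, adjusted p = 3.30e-07 from limma). PAXIP1 and PAGR1, which belong to the KMT2C and KMT2D complexes, fell with log2 fold changes of -0.38 and -0.69 (adjusted p = 3.37e-07 and 0.00272 from limma). NCOA6 of the same complexes was not called (log2 fold change -0.02, adjusted p = 0.629 from limma), nor was KMT2D (-0.08), while KMT2C and KDM6A rose. PAGR1 was the lowest of the list and rests on a low level of 2.08 ± 0.790 and 1.08 ± 0.426 CPM.

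Of 12 partners of KDM1A in CoREST and related complexes, 6 rose and 2 fell, where 29.8% of all genes were called higher and 32.7% lower. The median log2 fold change of these partners was 0.12. RCOR2 rose most, from 1.22 ± 0.243 to 2.73 ± 0.486 CPM (log2 fold change 0.91, adjusted p = 7.08e-07 from limma), and HMG20B fell most, from 103 ± 20.2 to 52.0 ± 8.25 CPM (log2 fold change -0.97, adjusted p = 1.75e-07 from limma). Among 9 measured partners of SETDB1 and readers of H3K9 methylation, 3 rose and 4 fell, beside the same shares of all genes. The ends were CBX1 at a log2 fold change of 0.28 and CBX3 at -0.29.

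From a chosen list of histone lysine methyltransferases outside the naming pattern, 18 genes were measured, of which 8 fell and 5 rose. Over all genes, 32.7% were called lower and 29.8% higher. The list is not complete, and KMT5B and KMT5C are not in it. SUV39H1, which trimethylates H3K9 in heterochromatin, was the lowest, from 11.6 ± 1.20 to 6.67 ± 0.475 CPM (log2 fold change -0.75, adjusted p = 1.36e-08 from limma). MECOM was the highest, from 1.31 ± 0.350 to 6.23 ± 0.370 CPM (log2 fold change 1.92, adjusted p = 1.97e-11 from limma). Of 5 measured demethylases in a further such list, 3 fell and 2 rose, beside the same shares of all genes. PHF8, a JmjC enzyme of H3K9 and H4K20, fell from 142 ± 4.28 to 91.5 ± 4.24 CPM (log2 fold change -0.63, adjusted p = 6.19e-13 from limma), and JMJD1C, the third KDM3-type enzyme, rose from 49.3 ± 4.36 to 66.9 ± 2.21 CPM (log2 fold change 0.44, adjusted p = 7.74e-07 from limma).

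**Figure D5:**
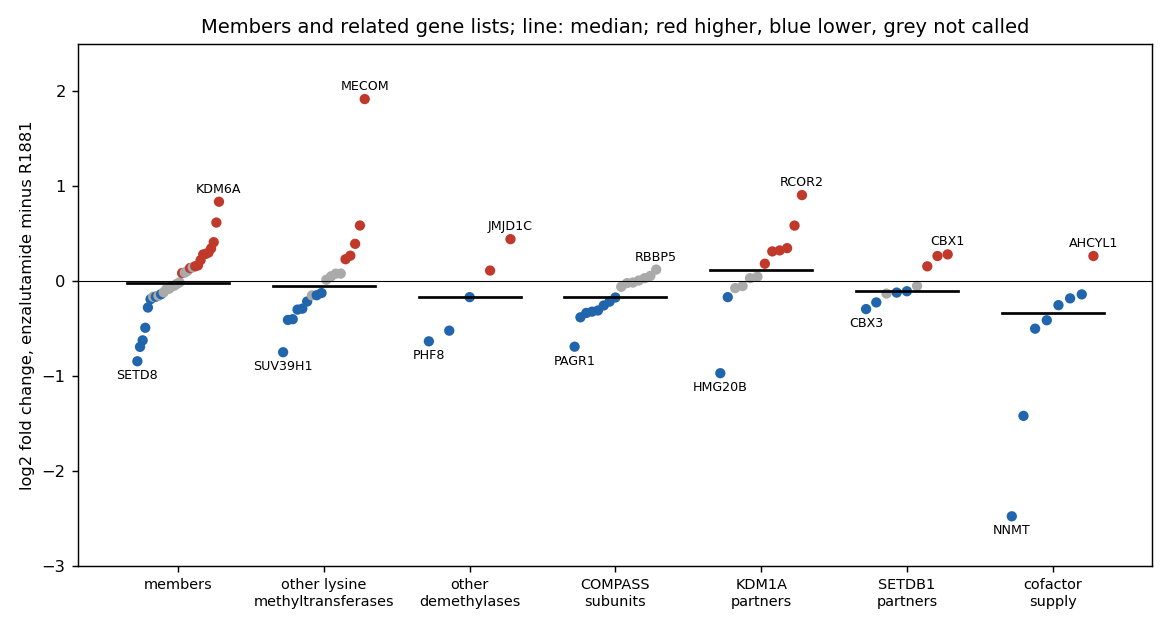
Log2 fold change (y axis, enzalutamide minus R1881) of each of the 32 enzymes and of the measured genes of 6 related lists (x axis), with the median as a black line and the lowest and highest gene named. MECOM at 1.92 and NNMT at -2.48 are the ends of the plot, and the COMPASS subunits have a median of -0.17.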

How the data were processed

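RNA of 15 LNCaP libraries was sequenced as single-end reads of 50 cycles (labels). STAR (GRCh38) and featureCounts were the mapper and counter of the authors, who deposited 1 normalized signal for each gene and library, named CPM in the methods. The methods give the replicate numbers of the treatments the other way round, and the labels were followed. No source used here states the gene annotation, strand setting, gene filter or library scaling. Library sums of the deposited signal were 1053406 to 1078567 with R1881 and 985580 to 1008992 with R1881 + enzalutamide. These ranges do not overlap, so that the unstated library scaling and the treatment cannot be told apart. Dividing each value by what 1 read is worth gave whole reads (within 0.01) for 100% of them, so reads could be recovered. In 55 pairs of libraries of 1 treatment, reads differed by more than sampling noise (lowest chi-square over its degrees of freedom, 1.63). The methods call the replicates biological, but separate cultures are not stated in the labels, so p-values measure the spread between these libraries.

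Differences were tested with limma 3.58.1 (R 4.3.3) on log2(CPM + 0.5) with a mean-variance trend, where the mean over libraries reached 0.5 CPM, with treatment as the only term and a threshold of 0.05 after Benjamini-Hochberg adjustment over 17046 genes. Fold changes on this scale understate those of low genes. The design had been written for CPM and was kept for the signal. Paralogue ratios were tested with two-sided exact permutation. Alternatives were pseudocounts of 0.1 and 1, other filters, equal library totals, TMM and median-ratio factors, edgeR 4.0.16 and DESeq2 1.42.0 on the recovered reads, a replicate block, each R1881 series alone, removal of trends on transcript length and GC content (splines with 5 degrees of freedom, available for 85.8% of genes) and each library left out. The limma test was checked on simulated reads. Gene positions are from GENCODE v44 and promoter windows from RefSeq, each of GRCh38, and symbols were matched through older names. The enzymes, lists and pairs were chosen with earlier results of these data known. Every enzyme of the naming pattern is named, with full values where it changed at least 1.5-fold or led its role group, and from each related list the highest and lowest called gene. Other names were chosen after their values were seen. Some prostate marker genes of the list are not reported here. The number of libraries sets the precision, and for the enzymes with the fewest reads (30 in a library for KDM4D) counting error adds to it.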

Additional observations from a re-analysis of the deposited data

Results flagged for a closer look

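Over 88 groups of 5 or 10 libraries (each enzyme and each paralogue ratio by treatment), 1 held a library far from the others, where chance gives about 4.4. KDM5C was at 123.4 CPM in R1881 replicate 6, and the next library of that group was at 110.6 CPM. The gap over the range was 0.527, above the critical value of 0.466 for 10 libraries. Without this library the log2 fold change of KDM5C was -0.17 (adjusted p = 7.41e-04 from limma) in place of -0.19. Across genes, its distance from the group mean correlated with GC content at a Spearman's rho of 0.74, and the part of GC content in the value of KDM5C was not tested in this library alone.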

How the results depend on the processing

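Most results kept their direction and their side of the threshold. Of 106 recomputed counts of called enzymes or pairs, 105 stayed within 1.5 times the reported count, and the count of enzymes lower with enzalutamide was 5 with all library totals made equal. No called enzyme or pair changed sign. With each library left out in turn, 8 to 9 enzymes were called lower, 11 to 13 higher and 11 to 12 pairs shifted. Replicate numbers did not pair the libraries, since the deviations of same-numbered libraries correlated between -0.07 and 0.07 across genes. With the replicate number as a block, 9 enzymes were lower and 11 higher, KDM2A no longer passed (log2 fold change 0.08, adjusted p = 0.118 from limma) and KMT2B passed (-0.21, adjusted p = 0.0143 from limma). edgeR called 8 lower and 14 higher and DESeq2 8 and 13. Over single enzymes and pairs, 9 recomputed values lost and 24 gained a call, the latter mostly of SETD2, SETDB2 and KDM5A. The KMT5B/KMT5C ratio was not called against the R1881 libraries 71 to 75 alone (-0.30), and the KDM4A/KDM4C ratio was called without R1881 replicate 8 (-0.15). The enzymes that lost their call with equal totals (KDM1A, KDM2B and KDM5C) had changes under 0.2 on the log2 scale.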

Other observations

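Of 8 genes that supply or drain the cofactors of these enzymes, 7 fell and 1 rose, where 32.7% of all genes were called lower and 29.8% higher. Their median log2 fold change was -0.33, beside -0.01 over all genes. IDH1, which makes 2-oxoglutarate in the cytosol, fell from 1167 ± 57.4 to 436 ± 21.3 CPM (mean ± SD of 10 and 5 libraries), a log2 fold change of -1.42 (adjusted p = 7.09e-18 from limma). IDH2, its mitochondrial counterpart, fell with -0.41, and OGDH, which consumes 2-oxoglutarate, with -0.50. MAT2A, which makes S-adenosylmethionine, fell with -0.25, and AHCY, which clears the product of methyl transfer, with -0.18. NNMT, which consumes S-adenosylmethionine to methylate nicotinamide, was the lowest at -2.48, from 3.99 ± 0.621 to 0.301 ± 0.076 CPM, and AHCYL1 was the gene that rose, at 0.26. No level of a metabolite was measured.

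Among the other lysine methyltransferases, SMYD3 rose from 27.5 ± 1.90 to 41.5 ± 1.55 CPM (log2 fold change 0.59, adjusted p = 1.78e-09 from limma). The pair EHMT1 and EHMT2, which dimethylate H3K9 together, moved apart, with log2 fold changes of -0.40 and 0.27 (adjusted p = 1.03e-06 and 0.00650 from limma). The ratio of this pair was not tested.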
